A study of Mus musculus with 6 samples.

Results

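The 6 genes described here encode the PIM serine/threonine kinases (Pim1, Pim2 and Pim3) and the D-type cyclins (Ccnd1, Ccnd2 and Ccnd3), followed in hematopoietic stem and progenitor cells of mice given a JAK inhibitor. They were chosen by gene symbol, as growth and survival targets of the transcription factor STAT5, and all 6 of 6 were found among the 24421 genes of the deposited count table and passed the low-count filter that left 13411 genes for testing. RNA came from Lin-CD117+ bone marrow cells, sorted for lack of lineage antigens and presence of the KIT receptor, of CByB6F1 mice labelled female and aged 2 to 5 months. The RUX group holds 3 pools (4 to 6) from mice treated with ruxolitinib, a drug that blocks JAK1 and JAK2, and the untreated group holds 3 pools (1 to 3) from mice that were not. Each pool joined cells of 2 to 3 mice of its group, so a value is an average over those mice. No genotype, transgene or other agent is named in the labels. The sources used here state neither the drug dose nor how long it was given. The question of the study is how the drug affects the transcripts of these cells in mice without disease.

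When a cytokine such as erythropoietin, thrombopoietin or interleukin-3 binds its receptor, JAK kinases phosphorylate STAT5, which enters the nucleus and activates target genes. The PIM kinases are short-lived proteins that are active without an upstream phosphorylation step, so their abundance depends largely on how fast they are made and broken down. They phosphorylate proteins of survival, translation and the cell cycle, among them BAD, 4E-BP1 and p27. The D cyclins bind the kinases CDK4 and CDK6, and these complexes phosphorylate the retinoblastoma protein and release E2F factors that drive entry into S phase. Cyclin D2 and cyclin D3 are known as the main D cyclins of blood cells, with cyclin D3 important for the divisions of erythroid precursors, and mice that lack all D cyclins die as embryos with failed blood formation.

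Libraries held 46027491 to 48747137 counted read pairs in the RUX pools and 27354768 to 38691826 in the untreated pools, and the 6 genes held 468 to 15518 read pairs each in the RUX pools and 323 to 12066 in the untreated pools. Kit, which encodes the sorted antigen CD117, stood at 277 to 431 CPM (counts scaled to a common library total, here the whole library) in RUX pools and 191 to 476 CPM in untreated pools. Cd3e, a T cell antigen gene, was at 0.103 to 0.196 CPM in RUX pools and 0.146 to 0.543 CPM in untreated pools. Some other genes of the T and NK cell list and of the lymphoid and B cell list were higher. The 13 T and NK cell markers summed to 263 to 427 CPM in RUX pools and 239 to 408 CPM in untreated pools. Most of this was Nkg7, at 219 to 378 and 189 to 337 CPM. The highest value of any other gene of that list was 24.2 CPM (Lck, untreated pool 3). Which cells held the Nkg7 RNA was not tested, so the sum is no measure of T and NK cells. Dntt, of the lymphoid and B cell list, was at 404 to 503 and 463 to 601 CPM. RUX pool 4 and untreated pool 3 stood apart from the other pools for eosinophil transcripts: the 9 eosinophil markers summed to 227, 106 and 62.2 CPM in RUX pools 4, 5 and 6 and to 61.0, 51.0 and 243 CPM in untreated pools 1, 2 and 3. Untreated pool 1 and, less so, RUX pool 6 were low for late neutrophil granule genes. Ngp was at 304, 242 and 85.3 CPM in RUX pools 4, 5 and 6 and at 34.3, 573 and 487 CPM in untreated pools 1, 2 and 3. Camp was at 12.8 CPM in untreated pool 1, 25.1 CPM in RUX pool 6 and 79.0 to 204 CPM in the other pools. Without untreated pool 1 the log2 fold changes of the 6 genes lay between −0.06 (Ccnd1) and 0.22 (Pim2). Without RUX pool 6 they lay between −0.02 (Pim3) and 0.29 (Ccnd2). Of the marker lists, 1 gene was at 0 in every pool (Marco, of macrophages). Since these are bulk samples, fewer cells of a type and less RNA per cell cannot be told apart.

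Promoter windows from RefSeq (GRCm38.p6, the same assembly as mm10) were at hand for 4 of the 6 genes, with 6 windows of 300 bases that run from 250 bases before to 50 after an annotated start; Ccnd1 and Ccnd2 had none in the table. They are shown because the 6 genes are grouped as STAT5 targets, and 4 of the windows are printed. Neither Pim1 window sits on the start of the counted Pim1 exons (29491045). The printed one ends before that base, and the other lies inside the counted gene. Capitals mark matches, on either strand, to the GC box GGGCGG, to CCAAT and to TGACGT, the core of the cyclic AMP response element. The windows are chr17:29490535-29490834 for Pim1, chrX:7878056-7878355 for Pim2, chr15:88861944-88862243 for Pim3 and chr17:47593217-47593516 for the downstream start of Ccnd3, all on the plus strand and written 5′ to 3′.
Pim1: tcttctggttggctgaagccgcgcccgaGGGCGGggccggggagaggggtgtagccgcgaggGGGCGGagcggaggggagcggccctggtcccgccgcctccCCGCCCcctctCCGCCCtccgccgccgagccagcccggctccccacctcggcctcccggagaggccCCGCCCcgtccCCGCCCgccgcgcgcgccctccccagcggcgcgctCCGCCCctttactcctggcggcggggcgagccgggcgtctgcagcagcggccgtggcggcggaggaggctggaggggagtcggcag
Pim2: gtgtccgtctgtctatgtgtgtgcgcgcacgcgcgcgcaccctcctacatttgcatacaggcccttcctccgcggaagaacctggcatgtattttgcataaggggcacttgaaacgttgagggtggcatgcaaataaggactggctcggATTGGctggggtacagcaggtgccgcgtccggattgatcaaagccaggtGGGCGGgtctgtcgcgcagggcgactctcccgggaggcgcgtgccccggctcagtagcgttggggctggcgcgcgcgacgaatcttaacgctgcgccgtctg
Pim3: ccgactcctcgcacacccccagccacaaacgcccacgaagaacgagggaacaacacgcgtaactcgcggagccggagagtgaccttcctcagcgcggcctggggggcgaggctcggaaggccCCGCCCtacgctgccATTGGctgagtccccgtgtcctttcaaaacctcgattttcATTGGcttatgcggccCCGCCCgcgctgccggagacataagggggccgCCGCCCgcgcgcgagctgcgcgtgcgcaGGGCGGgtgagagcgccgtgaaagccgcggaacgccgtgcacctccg
Ccnd3: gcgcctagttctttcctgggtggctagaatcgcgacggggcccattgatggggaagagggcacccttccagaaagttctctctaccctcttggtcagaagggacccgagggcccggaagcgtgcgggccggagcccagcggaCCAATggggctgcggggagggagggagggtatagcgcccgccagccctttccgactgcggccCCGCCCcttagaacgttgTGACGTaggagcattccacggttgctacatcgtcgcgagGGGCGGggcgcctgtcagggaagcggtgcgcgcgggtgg
The STAT motif TTCNNNGAA, which reads the same on both strands, matched in 0 of the 6 windows, including the upstream Ccnd3 start and a second Pim1 start that are not printed; it matched in 8.30% of the 32851 windows of this length in the table. The GC box matched in 5 of the 6 windows, against 35.7% of all windows. It occurred 7 times in the printed Pim1 window, 4 times in that of Pim3, 2 times in that of Ccnd3 and 1 time in that of Pim2. CCAAT matched in 3 of the 6 windows, against 37.4% of all windows, with 2 matches for Pim3 and 1 each for Pim2 and Ccnd3. TGACGT matched in 1 of the 6 windows, that of Ccnd3 printed here, against 7.51% of all windows. The printed windows held 81.3% G and C for Pim1, 62.7% for Pim2, 69.0% for Pim3 and 67.0% for Ccnd3, and no matches overlapped. A match in letters is a description of the window and not a measured binding site. The lack of a STAT match cannot decide whether the genes are STAT5 targets. Most windows of the table lack the motif too, Ccnd1 and Ccnd2 had no window, and bases outside the windows were not searched.

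Ccnd3 was the most abundant of the 6 transcripts per length and Ccnd1 the least. RPKM is CPM divided by the summed exon length in kilobases. Library totals of tested genes were scaled by the TMM method (a trimmed mean of gene ratios). The same scaling holds for CPM values of genes that follow, except those of marker genes and marker sums, which use the whole library. Ccnd3 averaged 129 ± 8.60 RPKM in RUX pools and 121 ± 15.9 in untreated pools. Values are mean ± SD, n = 3 pools each, as for all such pairs that follow. Ccnd2 averaged 38.4 ± 7.58 RPKM in RUX pools and 34.3 ± 4.51 in untreated pools. Among the kinases, Pim1 averaged 21.3 ± 2.64 RPKM in RUX pools and 21.3 ± 2.63 in untreated pools. Pim3 followed with 10.1 ± 0.813 RPKM in RUX pools and 10.6 ± 0.660 in untreated pools, and Pim2 with 6.90 ± 0.715 in RUX pools and 5.83 ± 0.336 in untreated pools. Ccnd1, the D cyclin best known from epithelial cells and tumours, averaged 3.23 ± 0.909 RPKM in RUX pools and 3.57 ± 0.378 in untreated pools. Among all tested genes ranked by mean RPKM, Ccnd3 lay at the 93.4th percentile, Ccnd2 at the 80.0th, Pim1 at the 70.4th, Pim3 at the 55.8th, Pim2 at the 46.9th and Ccnd1 at the 35.6th.

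This order held in every pool, and no neighbours in it overlapped. Over the 6 pools the ratio of length-scaled levels was 3.46 for Ccnd3 over Ccnd2, with an SD of 0.26 on the log2 scale. It was 1.698 for Ccnd2 over Pim1 (SD 0.20), 2.05 for Pim1 over Pim3 (SD 0.10), 1.63 for Pim3 over Pim2 (SD 0.24) and 1.89 for Pim2 over Ccnd1 (SD 0.32). All 15 pairs of genes differed in the same direction in 6 of 6 pools. Each had a two-sided exact sign-flip permutation p of 0.0313, which is the smallest that 6 pools can give. It stayed 0.0313 after Benjamini-Hochberg adjustment over the 15 pairs. This p measures the spread between pools. It does not cover an error in the exon length used, which would be the same in every pool. Without division by length, Pim2 and Ccnd1 could not be separated (Pim2 higher in 3 of 6 pools, ratio 1.02, exact adjusted p = 0.875), since the Ccnd1 exons sum to 3796 bases and those of Pim2 to 2041.

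**Figure D1:**
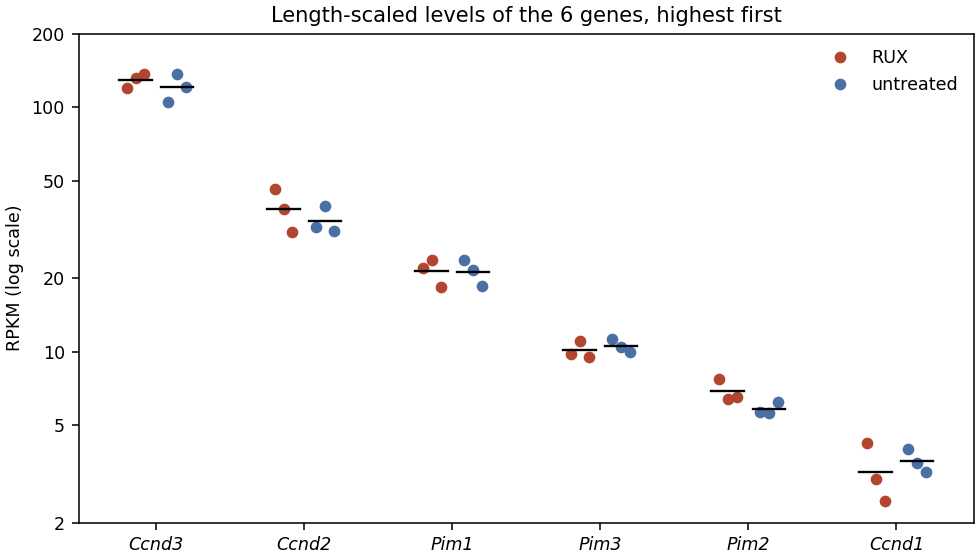
Length-scaled levels of the 6 genes in RPKM on a log axis, ordered by mean level, with RUX pools left of untreated pools; each point is a pool and each line a group mean. The genes occupy separate ranges, from 105 to 137 RPKM for Ccnd3 down to 2.45 to 4.22 RPKM for Ccnd1.

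Within the D cyclin family Ccnd3 carried 70.4, 76.1 and 80.3% of the summed RPKM in RUX pools 4, 5 and 6, against 74.2, 76.1 and 77.9% in untreated pools 1, 2 and 3. Ccnd2 carried 27.1, 22.2 and 18.2% in RUX pools and 23.0, 22.0 and 20.04% in untreated pools, and Ccnd1 1.44 to 2.49% in RUX pools and 1.95 to 2.82% in untreated pools. Both ends of the Ccnd2 and Ccnd3 shares were thus RUX pools, pool 4 and pool 6, with the untreated pools between them. The 3 cyclins together summed to 170, 172 and 169 RPKM in RUX pools 4, 5 and 6 and to 141, 180 and 155 RPKM in untreated pools 1, 2 and 3. Pim1 carried 53.4 to 57.4% of the summed PIM level in RUX pools and 53.3 to 58.4% in untreated pools. The 3 kinases summed to 34.5 to 41.1 RPKM in RUX pools and 34.7 to 40.7 RPKM in untreated pools. These sums and shares are given as values, with no test.

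None of the 6 transcripts passed the test of RUX against untreated pools, and Pim2 alone had groups that did not overlap. Of the 6 genes, 0 had an adjusted p under 0.05 in edgeR's quasi-likelihood test (percent called over all tested genes 0%), DESeq2 or limma-voom, and 0 had an unadjusted p under 0.05 in any of the 3 tools. Over all 13411 tested genes edgeR also called 0, with 254 at an unadjusted p under 0.05 (1.89%), against 281 for DESeq2 and 262 for limma-voom. Log2 fold changes, given as RUX minus untreated, were positive for 4 of the 6 genes and negative for 2, with a median of 0.05; over all tested genes 49.2% were positive and the median was −0.004. The edgeR adjusted p was 1.00 for each of the 6 genes.

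Pim2 (chromosome X, 7878306 to 7883432 in mm10, 6 exons after merging overlaps), a kinase gene known for its part in lymphoid and plasma cell survival, measured 15.8, 13.1 and 13.3 CPM in RUX pools 4, 5 and 6, against 11.5, 11.5 and 12.7 CPM in untreated pools 1, 2 and 3. All 3 RUX pools lay above all untreated pools, with RUX pool 4 highest and a narrow gap between RUX pool 5 and untreated pool 3. The log2 fold change was 0.24 ± 0.17 (SE), a fold of 1.18 with a 95% interval of 0.912 to 1.53, and the unadjusted edgeR p was 0.187. Of all tested genes 2.99% lay higher in this way without overlap and 6.24% in either direction, and 1 of the 6 genes did so here. None of the 6 lay lower without overlap, as 3.25% of all tested genes did. The direction was the same in all 14 alternative settings, at 0.16 to 0.29. This adds no support: without overlap, leaving pools out could hardly turn it, and the other settings refit the same 6 pools.

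Pim1 (chromosome 17, 29491045 to 29495459, 6 merged exons), first found as a site of retroviral insertion in mouse lymphomas and widely used as a readout of STAT5 activity, measured 38.5, 41.4 and 32.3 CPM in RUX pools 4, 5 and 6, against 41.6, 37.7 and 32.5 CPM in untreated pools 1, 2 and 3. The ranges coincided almost wholly, and the highest and lowest pools of the groups differed by under 1 CPM. Its log2 fold change was 0.004 ± 0.16 (SE), a fold of 1.00 with a 95% interval of 0.790 to 1.27; it turned negative without untreated pool 3, RUX pool 4 or RUX pool 5 (−0.086, −0.01 and −0.075).

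Pim3 (chromosome 15, 88862194 to 88865726, 6 merged exons), the family member best known from solid tumours and metabolism, measured 23.7, 26.7 and 23.0 CPM in RUX pools 4, 5 and 6, against 27.3, 25.2 and 24.1 CPM in untreated pools 1, 2 and 3. The groups overlapped. Its log2 fold change was −0.06 ± 0.15 (SE), a fold of 0.958 with a 95% interval of 0.764 to 1.203. Pim3 was the steadiest of the 6 genes: its coefficient of variation (CV) over the 6 pools was 6.82%, near the low end of tested genes (percentile 5.53, with a median CV of 15.97%).

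Ccnd2 (chromosome 6, 127125709 to 127151048, 5 merged exons, minus strand), the D cyclin that cytokine signals induce in lymphoid and progenitor cells, measured 266, 221 and 178 CPM in RUX pools 4, 5 and 6, against 187, 228 and 180 CPM in untreated pools 1, 2 and 3. RUX pool 4 was highest and RUX pool 6 lowest of all 6 pools, so the untreated values lay within the RUX range. The log2 fold change was 0.16 ± 0.17 (SE), a fold of 1.12 with a 95% interval of 0.868 to 1.44. It was 0.02 without RUX pool 4, 0.29 without RUX pool 6 and 0.28 without untreated pool 2, and −0.055 when untreated pool 3 and RUX pool 4 were both left out.

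Ccnd3 (chromosome 17, 47505051 to 47599688, 7 merged exons), the cyclin of erythroid and lymphoid precursor divisions, measured 270, 297 and 308 CPM in RUX pools 4, 5 and 6, against 237, 309 and 273 CPM in untreated pools 1, 2 and 3. Only untreated pool 1 lay below all RUX pools, and untreated pool 2 was the highest of all. The log2 fold change was 0.09 ± 0.15 (SE), a fold of 1.07 with a 95% interval of 0.855 to 1.33; it was 0.001 without untreated pool 1 and 0.20 without untreated pool 2. The annotated Ccnd3 exons share 358 bases, 15.8% of their length, with exons of Bysl on the opposite strand. No strand option is recorded, and the tool's default leaves out pairs that overlap 2 genes, so the Ccnd3 level may be understated; with those bases taken off its length the ratio of Ccnd3 to Ccnd2 was 4.11. The value for Bysl itself was 0.09 ± 0.15 (log2, with SE).

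Ccnd1 (chromosome 7, 144929931 to 144939925, 5 merged exons, minus strand) measured 16.03, 11.4 and 9.28 CPM in RUX pools 4, 5 and 6, against 15.1, 13.3 and 12.3 CPM in untreated pools 1, 2 and 3. RUX pool 4 was again highest and RUX pool 6 lowest, and the other RUX pool also lay below every untreated pool. The log2 fold change was −0.15 ± 0.21 (SE), a fold of 0.903 with a 95% interval of 0.656 to 1.24. It was −0.38 without RUX pool 4, 0.018 without RUX pool 6 and −0.45 when untreated pool 3 and RUX pool 4 were both left out, still with an edgeR adjusted p over 0.9. Ccnd1 varied most of the 6 genes, with a CV of 19.1% over the pools.

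**Figure D2:**
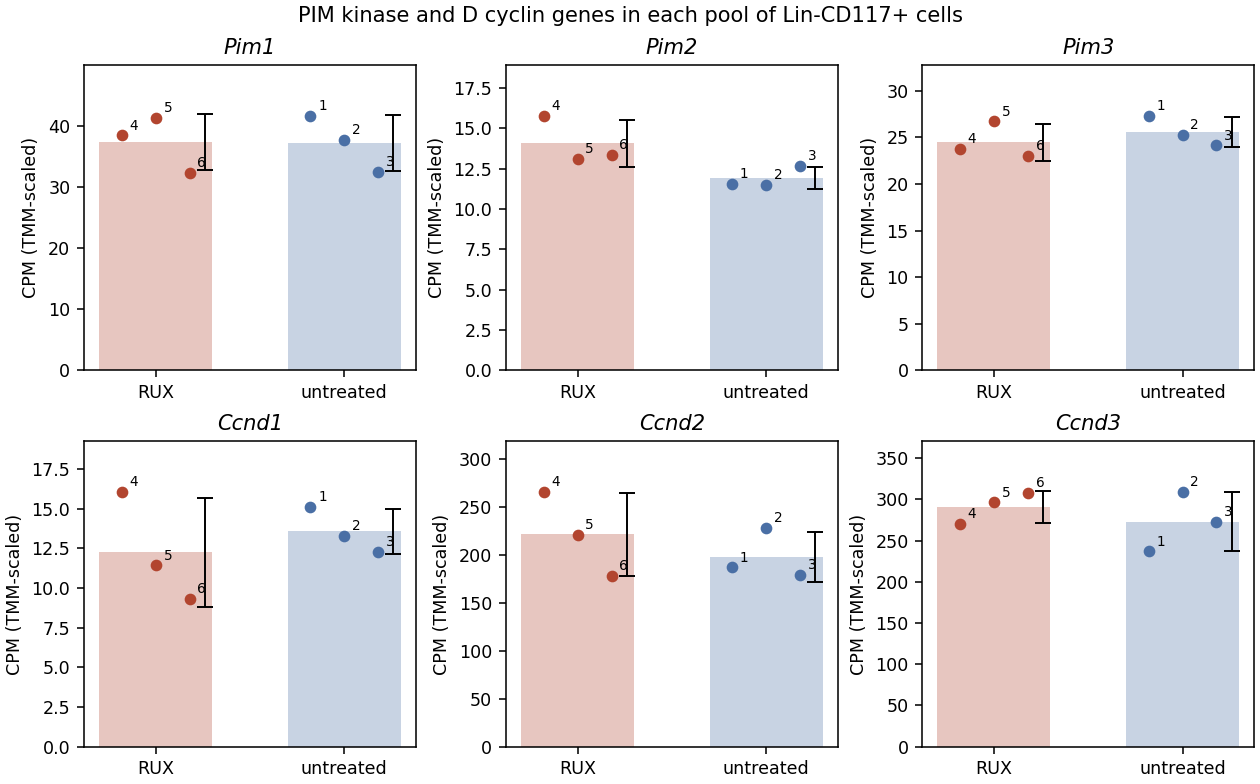
CPM of each gene, relative to the TMM-scaled library, in RUX pools (left) and untreated pools (right); points are pools with their numbers, bars are group means and error bars, drawn at the bar's right, are SD of 3 pools. Groups overlap for 5 genes, and for Pim2 the RUX pools at 13.1 to 15.8 CPM lie above the untreated pools at 11.5 to 12.7 CPM.

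The intervals bound the changes that these pools leave possible. For all 6 genes the 95% interval of the fold included 1. The lowest limit was 0.656, for Ccnd1, and the highest was 1.53, for Pim2. A p that misses the threshold does not show that the genes were unchanged, and the interval gives the range of folds that 3 against 3 pools could not separate.

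**Figure D3:**
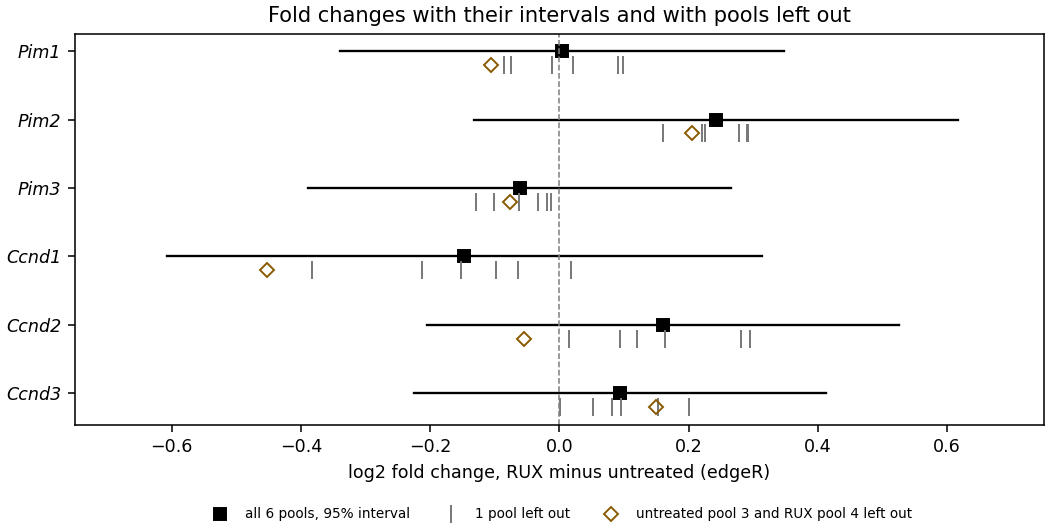
Log2 fold change of each gene, RUX minus untreated, from edgeR: squares with lines are the estimate and its 95% interval, ticks the values with 1 pool left out, and diamonds those without untreated pool 3 and RUX pool 4. Every interval crosses 0, and Ccnd1 and Ccnd2 move most when pools are left out (−0.45 to 0.02 and −0.05 to 0.29).

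The 6 genes did not share 1 profile over the pools. Ccnd2 and Ccnd1 were both highest in RUX pool 4, at 0.35 and 0.31 above their own mean of log2(CPM + 1), and both low in RUX pool 6, at −0.22 and −0.42. Ccnd3 went the other way in these pools, at −0.06 in RUX pool 4 and 0.13 in RUX pool 6. Pim1 and Pim3 were the most alike pair, with their highest values in RUX pool 5 and untreated pool 1 and their lowest in RUX pool 6. Over the 6 pools their log2 CPM gave Pearson r = 0.83 (exact permutation p = 0.05, adjusted over the 15 pairs 0.676) and Spearman rho = 0.83 (exact permutation p = 0.0583, adjusted 0.725). Without the 2 pools farthest from the Pim1 median r was 0.84. None of the 15 pairs passed after adjustment, and values within a group are not given because 3 pools are too few.

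The pools also differed in lineage transcripts, which is given here beside the cyclin values. The summed level of 12 erythroid markers was 5564, 6813 and 9218 CPM in RUX pools 4, 5 and 6 and 6653, 7616 and 6255 CPM in untreated pools 1, 2 and 3. In the RUX pools this order was the reverse of that of Ccnd1 and Ccnd2, while in the untreated pools it was the order of Ccnd2. For the r and rho values that follow, a list was not its sum but its mean deviation of log2(CPM + 1). That mean was taken over the tested genes of the list, on the TMM-scaled library. Each deviation was from the gene's own mean over the 6 pools. Over the 6 pools r with the erythroid list was −0.51 for Ccnd2 (exact permutation p = 0.321; rho = −0.49, exact permutation p = 0.356), and 0.73 without the 2 farthest pools. For Ccnd1 r was −0.77 (exact permutation p = 0.0708, and rho = −0.54, exact permutation p = 0.297), and 0.26 without the 2 farthest pools. Those pools, RUX pools 4 and 6, were the ends of the erythroid list, so leaving them out also narrowed its range. Which pools the relations rest on was not tested. Neither relation passed after adjustment (adjusted exact permutation p = 0.911 for each). The 14 neutrophil markers summed to 8789 to 11512 CPM in RUX pools and 7073 to 15621 CPM in untreated pools, with untreated pool 3 highest. Mpo, an early granule gene, made up most of that sum (6242 to 7339 CPM in RUX pools and 3665 to 9005 CPM in untreated pools), so it does not show the low late granule genes of untreated pool 1. The 13 stem and progenitor markers summed to 1372 to 1644 CPM in RUX pools and 1066 to 1713 CPM in untreated pools, with untreated pool 3 lowest. Pim1 had its second lowest value in that pool. Across the 66 relations of the 6 genes to 11 marker lists, 2 had an unadjusted exact permutation p under 0.05 and 0 passed after adjustment (smallest adjusted p = 0.825). These 2 were Pim1 with stem and progenitor markers (r = 0.79, exact permutation p = 0.0125; rho = 0.89, exact permutation p = 0.0333; r = 0.91 without the 2 farthest pools) and Pim2 with 8 tested megakaryocyte markers (r = 0.86, exact permutation p = 0.0361; rho = 0.89, exact permutation p = 0.0333; r = 0.62). The megakaryocyte markers summed to 144 to 162 CPM in RUX pools and 130 to 138 CPM in untreated pools, without overlap, as for Pim2. Pf4 and Itga2b made up most of the sum, and each overlapped between groups. In RUX and untreated pools Pf4 was at 46.8 to 63.7 and 36.2 to 61.4 CPM. Itga2b was at 63.7 to 78.4 and 49.9 to 71.9 CPM. Of the markers found, only Tubb1 did not overlap, at 0.107 to 0.841 CPM over all pools. The mean deviation used for r barely separated (−0.036 in RUX pool 6, −0.048 in untreated pool 3). The part of these markers in the Pim2 values was not tested.

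**Figure D4:**
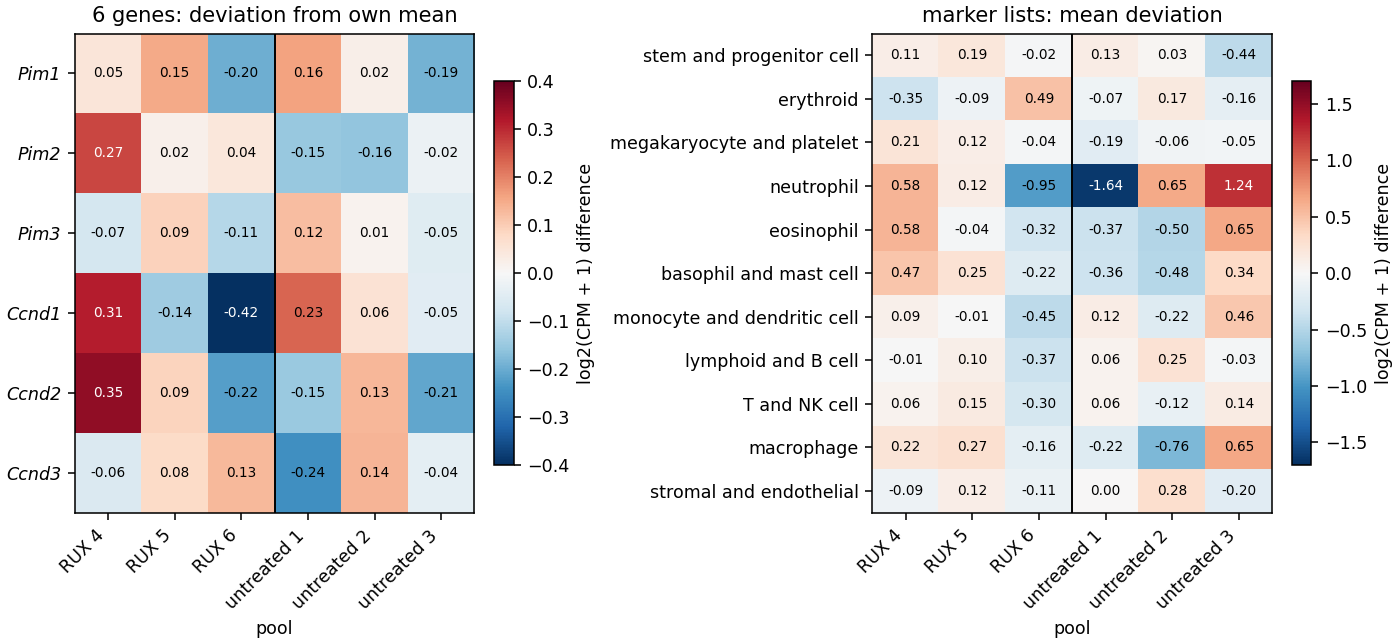
Deviation of log2(CPM + 1) from the mean over 6 pools for each gene (left panel) and averaged over the tested members of each marker list (right panel); columns are RUX pools 4 to 6, then untreated pools 1 to 3, with a separate colour scale per panel. Ccnd1 and Ccnd2 peak in RUX pool 4 (0.31 and 0.35), where the erythroid list is lowest (−0.35), but in the untreated pools Ccnd2 and the erythroid list are both highest in pool 2 (0.13 and 0.17) and lowest in pool 3 (−0.21 and −0.16).

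Genes whose pool profile lay nearest to each of the 6 were found among 9525 genes with a mean of at least 5 CPM, by the root mean square difference of log2(CPM + 1) centred on each gene. For Ccnd2 these were Pnrc1, a nuclear receptor coactivator gene, and Tcf4, a transcription factor gene of dendritic and lymphoid cells, at differences of 0.03 and 0.04, against a spread of 0.21 for Ccnd2 itself. Pnrc1 ran at 184, 153 and 127 CPM in RUX pools 4, 5 and 6 and at 135, 162 and 133 CPM in untreated pools 1, 2 and 3, the same order of pools as Ccnd2. Ccnd1 was nearest to Mndal and Cngb1 (0.06 and 0.07) and Ccnd3 to Nvl and Tgm4 (0.04 each). Pim1 was nearest to Utp23 and Klhl6 (0.04 each), Pim2 to H2-Ke6 and Pdzk1ip1 (0.04 and 0.05) and Pim3 to Cyb5b and Bbs9 (0.02 each). With 6 pools and 9525 genes close matches are easily found, so these names describe the table and carry no test.

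No gene of the partners and targets of the 6 proteins passed the test. Of 23 listed genes for the cyclin D partners, their inhibitors and the RB and E2F families, 21 were tested and 0 passed in either direction in edgeR, DESeq2 or limma-voom (0 at an unadjusted p under 0.05 in each), with a median log2 fold change of 0.01. Cdk4, the kinase partner of all D cyclins, measured 742 ± 15.95 CPM in RUX pools and 780 ± 86.7 CPM in untreated pools, and its relative Cdk6 107 ± 15.2 CPM in RUX pools and 94.7 ± 25.5 CPM in untreated pools. Ccne1 and Ccne2, the E cyclins that act after the D cyclins with Cdk2, had log2 fold changes of 0.14 and −0.17, and Cdk2 one of 0.02. The inhibitor genes Cdkn1a, Cdkn1b, Cdkn2c and Cdkn2d, encoding p21, p27, p18 and p19, had values of −0.06, 0.01, 0.11 and −0.09. Rb1, which encodes the retinoblastoma protein, was the lowest of the list at −0.24 ± 0.17 (SE), its relative Rbl1 stood at −0.07, and E2f1 and E2f2 at 0.05 and 0.02. Cdkn1c, encoding the inhibitor p57 of quiescent stem cells, was the highest at 0.40 ± 0.25 (SE), with 4.79 ± 0.530 CPM in RUX pools and 3.63 ± 0.665 CPM in untreated pools without overlap; it was 1 of 21 genes of the list to do so, against 6.24% of all tested genes. Cdkn2a and Cdkn2b held 0 to 6 counts in any pool and were not tested.

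Of 23 E2F target and S-phase genes, all tested, 0 passed in any of the 3 tools (0 at an unadjusted p under 0.05), 8 had positive and 15 negative values, and the median was −0.03. Mcm5, a subunit of the replicative helicase, measured 490 ± 74.1 CPM in RUX pools and 490 ± 36.1 CPM in untreated pools, and Pcna, the DNA polymerase clamp, 408 ± 34.2 CPM in RUX pools and 426 ± 42.5 CPM in untreated pools. The values ran from −0.32 for Orc1, of the origin recognition complex, to 0.09 for Ccna2, the S-phase cyclin A2.

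Of 22 genes whose proteins are known PIM substrates, all tested, 0 passed in any of the 3 tools (0 at an unadjusted p under 0.05), with a median of 0.05. Bad, a death-promoting BCL2 relative, had a log2 fold change of −0.01, Eif4ebp1, the translation repressor 4E-BP1, one of 0.10, and Cxcr4, the homing receptor, one of 0.15. Foxo3, a quiescence factor, was the lowest at −0.14 and Nfatc1, a calcium-regulated factor, the highest at 0.19. Myc, which PIM kinases stabilise at the protein level, measured 437 ± 13.2 CPM in RUX pools and 383 ± 26.6 CPM in untreated pools. These groups did not overlap, as also for Nfatc1 (2 of 22 genes, against 6.24% of all tested genes), and the log2 value was 0.19 ± 0.14 (SE). The list shares Cdc25a, Cdkn1a and Cdkn1b with the first one and Myc with the next.

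Of 14 STAT5 genes, feedback genes and other targets, 13 were tested (Il2ra, at 2 to 7 counts, was not), 0 passed in any of the 3 tools and 1, Cish, had an unadjusted p under 0.05 in each, against 1.89% of all tested genes in edgeR. Cish, a feedback inhibitor of STAT5, measured 5.59 ± 0.679 CPM in RUX pools and 3.804 ± 0.462 CPM in untreated pools without overlap, as did 2 of 13 genes of the list with Myc, against 6.24% of all tested genes. Pim1 had a log2 fold change of 0.004 and Cish one of 0.55 ± 0.23 (SE). Stat5a and Stat5b themselves had values of −0.15 and −0.09. Socs1, Socs2 and Socs3, which also restrain cytokine receptors, stood at 0.77, 0.38 and −0.04, at levels of 0.796 to 5.37 CPM in any pool. The survival genes Bcl2l1 and Mcl1 had values of −0.11 and −0.06, and Bcl6, a repressor that STAT5 lowers, was the lowest at −0.32. The list's median was −0.05 and its mean 0.10. Of 9 genes of D cyclin turnover 0 passed in any of the 3 tools (0 at an unadjusted p under 0.05), with a median of −0.01 and values from −0.15 for Cul4b to 0.09 for Fbxo4. Ambra1, the adaptor that targets D cyclins for degradation, was at −0.10, and Gsk3b, the kinase that marks cyclin D1 for export and degradation, at 0.06.

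**Figure D5:**
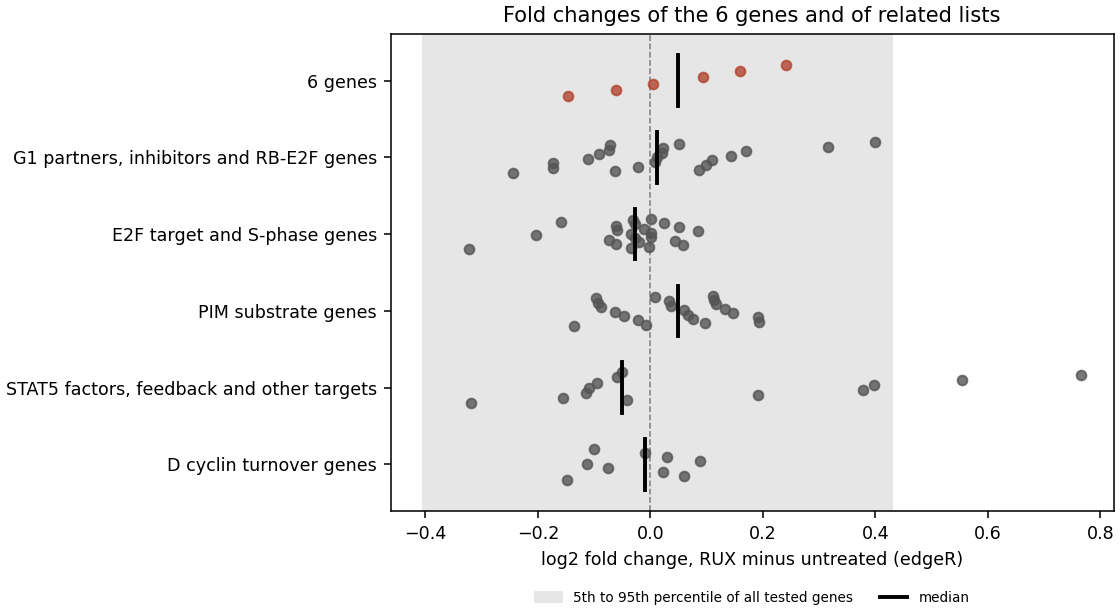
Log2 fold changes, RUX minus untreated, of the 6 genes and of the tested members of the 5 related lists; points are genes, thick lines list medians and the grey band the 5th to 95th percentile of all tested genes (−0.40 to 0.43). List medians lie between −0.05 and 0.05, and Cish and Socs1 lie outside the band.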

How the data were processed

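Libraries of the 6 pools used Takara's SMART-Seq mRNA LP chemistry, per the labels' protocols. STAR and mm10 are named in the submitters' processing notes. The authors deposited raw counts, as whole read pairs assigned to each gene, from featureCounts 2.0.3 over UCSC mm10 exons with no strand, multi-mapping or overlap option, per the file headers. The deposited exon length in bases scaled counts to RPKM.

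Columns were matched to pools by library name. edgeR 4.0.16 (R 4.3.3) kept 13411 genes (filterByExpr), scaled by TMM (factors 0.938 to 1.035) and ran the two-sided quasi-likelihood test with treatment as the only term, Benjamini-Hochberg adjusted over all tested genes, threshold 0.05. Each SE was the log2 fold change over the square root of F. Level ratios added 0.5 counts. Scripts were tested on simulated data. Alternatives were other scalings, filters, robust fitting, DESeq2 1.42.0, limma-voom 3.58.1, a threshold of 0.1 and pools left out; the relations to marker lists, the Ccnd3 length alternative and pool orders with pools left out were added after the data had been seen. Members and lists were chosen with earlier results of these data known. Genes named were the 6 members, 30 fixed list genes, each list's highest and lowest, and the 2 nearest profiles per member. P-values measure the spread between pools of different mice; depth was 27354768 to 48747137 read pairs, and no molecular identifiers are stated.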

Additional observations from a re-analysis of the deposited data

How the results depend on the processing

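No paired analysis was possible because the groups share no pool numbers. Pim2, Pim3 and Ccnd3 kept their direction in all 14 alternatives. For Pim2, whose groups did not overlap, leaving pools out could hardly have turned it. Pim1 (0.004 with all pools) became −0.11 without untreated pool 3 and RUX pool 4 together and ran from −0.086 to 0.10 with 1 pool left out, negative in 3 of these: −0.086 without untreated pool 3, −0.01 without RUX pool 4 and −0.075 without RUX pool 5. Ccnd1 ran from −0.38 to 0.018 with 1 pool left out, positive without RUX pool 6. Ccnd2 became −0.055 without untreated pool 3 and RUX pool 4 together and ran from 0.015 to 0.29 with 1 pool left out. None of the 6 genes was called in any of these, nor was any gene of the related lists. Over all genes edgeR called 14 without the low-count filter, where 19186 genes were tested, against 0 with it; the cause was not tested. Of these, 10 were listed neutrophil markers (Ngp, Camp, Ltf, Lcn2, S100a8, S100a9, Mmp8, Mmp9, Retnlg and Chil3), at −1.07 to −0.69 in RUX, although their groups overlapped and untreated pool 1 was the lowest of all pools for 9 of them. List medians stayed within the spread between pools, except that of D cyclin turnover genes without RUX pool 6 (−0.16). All 15 level pairs passed with 5 counts added and with the shared Bysl bases left out, and 14 without length scaling. With pools left out no test was made, since 5 pools cannot give an exact p below 0.0625. The order of the 15 pairs in the pools kept is no further check, because it already held in each of the 6 pools. None of the 15 correlations passed with DESeq2 or upper-quartile scaling. Counting error limits Pim2 and Ccnd1 most, at 323 to 692 read pairs.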
